A study of Homo sapiens with 18 samples.

Results

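These data describe how senescent human fibroblasts responded, across all genes, to DDD86481, an inhibitor of N-myristoyltransferases (NMTi). The comparison takes the 3 libraries of senescent cells given DDD86481 and the 3 libraries of senescent cells given DMSO, as the labels name them, out of 18 libraries in the series. Cells were IMR90 ER:RAS, human lung fibroblasts in which oncogenic RAS is fused to the part of the oestrogen receptor that binds hormone. For senescence, cells received 100 nM 4-hydroxytamoxifen (4OHT), which activates the fusion, and control cells received DMSO in its place. After 7 days, DDD86481 at 1.5 µM or DMSO was added for 3 days, and cells were collected on day 10. The other groups used here are control cells given DMSO, control cells given DDD86481 at 1.5 µM, and senescent cells given IMP1088, another NMTi, at 300 nM, with 3 libraries each. All groups carry the ER:RAS fusion, and the labels give the genotype as WT. Poly(A) RNA was counted in 28266 gene rows, of which 14341 were tested.

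N-myristoyltransferases, NMT1 and NMT2 in human cells, attach the fatty acid myristate to a glycine at the start of proteins, which helps them bind membranes. Among these proteins are the ARF GTPases, which recruit the COPI coat to the Golgi and so keep vesicles moving from the Golgi back to the endoplasmic reticulum (ER), and signalling proteins such as SRC family kinases. When folding in the ER fails, the unfolded protein response (UPR) raises chaperones and degradation factors through ATF6, XBP1 and ATF4. Senescent cells stop dividing and secrete many cytokines, proteases and growth factors, together called the senescence-associated secretory phenotype (SASP), which loads this secretory pathway.

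The 6 libraries of the comparison held from 17538417 to 20418084 counts, and the 10 most abundant genes took from 7.14% to 7.87% of each. Levels are given in CPM, counts scaled to a common library size per 1e+06 reads by TMM, for replicates 1, 2 and 3 in that order, and an error after a level is an SD. The effect of DDD86481 is given as a log2 fold change (log2 FC) of DDD86481 against DMSO with its SE, and medians of gene groups are medians of log2 FCs. On the first principal component of the 6 libraries (68.9% of the variance) the DDD86481 libraries lay between -43 and -38.5 and the DMSO libraries between 39.2 and 41.8. On the second (10.5%), the DDD86481 libraries lay apart from each other, at 29.2, -7.52 and -22.9, with the DMSO libraries between -6.37 and 5.61. The labels do not say that the 3 libraries of a group came from separate cultures. The p-values therefore measure a spread between libraries of a group, estimated over all 18 libraries, which may be technical. Among markers of other cell types, KRT5, KRT14, CD3E and MYOD1 had 0 counts in the 6 libraries, CDH1 had 0 to 3 and PTPRC 1 to 6, while TEK had 47 to 219, VWF 61 to 117, CLDN4 150 to 243 and CD68 1667 to 2681. Of the 8 fibroblast markers S100A4 had 45 to 72 counts, and the others at least 1291 in every library, with VIM highest at 141238 to 217274. In bulk RNA, fewer cells of a kind and less RNA in each cell cannot be told apart.

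DDD86481 altered a large share of the transcriptome of senescent cells. Of 14341 genes tested, 2877 rose (20.1%) and 3312 fell (23.1%), so 6189 (43.2%) passed an adjusted p of 0.05 in edgeR's quasi-likelihood test with Benjamini-Hochberg adjustment. Without DDD86481 replicate 1, the library that stood apart on the second component, 5527 passed. At least 2-fold changes were fewer, with 707 genes that rose (4.93%) and 878 that fell (6.12%). The 3 DDD86481 libraries lay above the 3 DMSO libraries in 3436 genes (24%) and below them in 4114 (28.7%). Over all genes tested the median log2 fold change was -0.04, and counts of gene groups are to be read against these shares. Members of a group that were too low to be tested are left out of its counts.

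**Figure D1:**
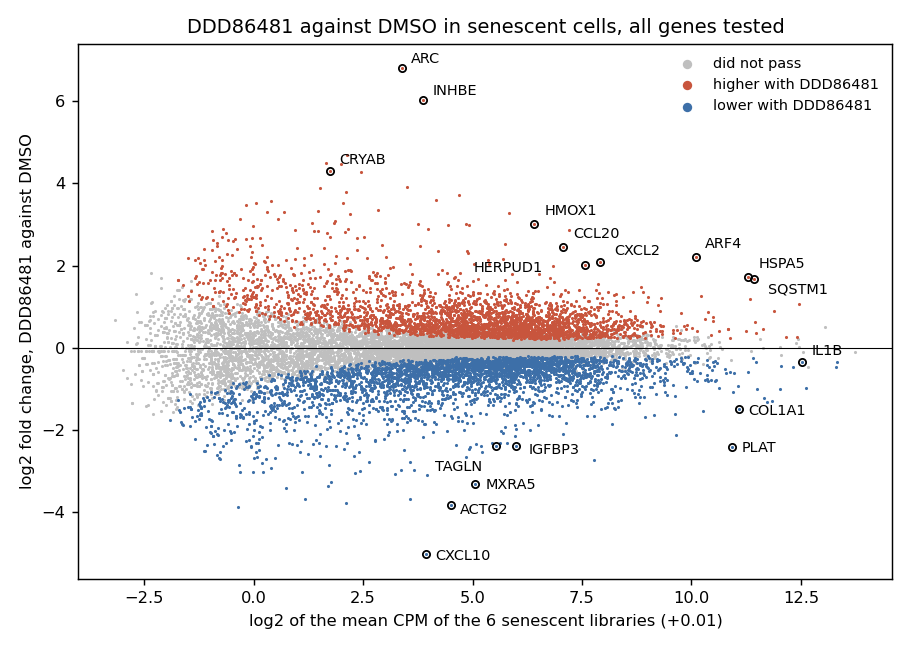
Log2 fold change of DDD86481 against DMSO in senescent cells (vertical axis) against the log2 of the mean CPM of the 6 libraries (horizontal axis), with 1 point for each of 13818 genes. Red and blue points passed the test and grey points did not, circled genes are named in the text, and 523 genes at or under 3 counts in every library of 1 group are not drawn. ARC and INHBE are the highest points, with log2 FCs of 6.81 and 6.03, and CXCL10 the lowest, at -5.04.

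Among the largest rises was APOA4, an apolipoprotein of lipid transport (chromosome 11, 116820700 to 116823304, GRCh38, as for all positions). It had 0 counts in the 3 DMSO libraries and 8.57, 7.63 and 11.5 CPM with DDD86481. Against a floor of 3 counts per library this is at least 51.5-fold higher, with an adjusted p of 1.49e-09. A gene on the other strand covers 43.2% of its exonic bases. INHBE, an activin subunit gene and a known target of ATF4 (chromosome 12, 57455307 to 57458025), went from 0.0617, 0.809 and 0.44 CPM to 23.3, 27 and 36.7 CPM (log2 FC 6.03 ± 0.47, adjusted p = 5.98e-09). ARC, an immediate-early gene, went from 0.123, 0 and 0.385 CPM to 19.5, 8.62 and 34 CPM (log2 FC 6.81 ± 0.6, adjusted p = 3.12e-08). The groups did not overlap for any of these genes, but ARC varied among the DDD86481 libraries, with replicate 2 lowest and replicate 3 highest. IL23A, a subunit of interleukin 23, rose from 0.247, 0.373 and 0.33 to 5.35, 8.46 and 11.4 CPM (log2 FC 4.70 ± 0.4, adjusted p = 1.68e-08).

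Other rises of the same rank started from DMSO levels at or under the floor and are lower bounds. HSPA6, an inducible cytosolic heat shock protein, was at least 30.5-fold higher with 6.5, 1.62 and 8.28 CPM in the DDD86481 libraries. LDHD was at least 24.7-fold, CLDN3 at least 18-fold and DUSP9, a phosphatase that dampens MAP kinases, at least 11.9-fold higher. KLHDC7B, TBC1D10C, FBXO16 and GCNT3 were at least 5.67, 5.99, 9.6 and 9.11-fold higher, with mean levels of 1.02, 1.07, 1.72 and 1.63 CPM. FBXO16 shares 51.7% of its exonic bases with ZNF395.

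The largest falls included the interferon-induced chemokines CXCL10 and CXCL11. CXCL10 (chromosome 4, 76021118 to 76023497) went from 24.8, 33.8 and 30.3 CPM with DMSO to 0.819, 0.993 and 0.859 CPM with DDD86481 (log2 FC -5.04 ± 0.3, adjusted p = 2.25e-10). CXCL11, at 1.85, 2.99 and 1.98 CPM with DMSO, was at or under the floor with DDD86481 and at least 13.5-fold lower. ACTG2, a smooth muscle actin, fell from 42, 37.8 and 47.8 to 2.62, 3.13 and 3.19 CPM (log2 FC -3.84 ± 0.17, adjusted p = 7.94e-12), and MXRA5, a matrix protein, from 60.4, 70.3 and 49.6 to 5.19, 4.91 and 8.09 CPM (log2 FC -3.32 ± 0.34, adjusted p = 1.73e-07). In these genes every DDD86481 library was below every DMSO library. INMT, a methyltransferase of amines, fell from 21.6, 22.7 and 21.6 to 1.91, 1.72 and 1.47 CPM (log2 FC -3.68 ± 0.18, adjusted p = 1.56e-11). GABRB1, TNFSF18, ITGA8, LINC00475 and CMKLR1 fell with log2 FCs of -3.78, -3.69, -3.38, -3.42 and -3.88. MEOX1 was at least 14-fold and PTGDR2 at least 6.19-fold lower. A readthrough gene covers 11.1% of the exonic bases of INMT, and another gene 100% of those of LINC00475, whose count is uncertain.

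The transcript of NMT1, 1 of the enzymes that DDD86481 inhibits, did not pass, and that of NMT2 fell. NMT1 (chromosome 17, 45061317 to 45109016) had 159, 164 and 163 CPM with DMSO and 173, 178 and 173 CPM with DDD86481 (log2 FC 0.11 ± 0.084, adjusted p = 0.316). NMT2 fell from 16.3, 18.1 and 16.4 to 11.8, 15 and 11.7 CPM (log2 FC -0.39 ± 0.14, adjusted p = 0.032). Of 7 genes of N-myristoylation tested, 0 rose and 3 fell, with a median of -0.18. The other falls were in the carriers of myristoylated proteins UNC119 (log2 FC -0.41 ± 0.13, adjusted p = 0.0158) and UNC119B (log2 FC -0.28 ± 0.09, adjusted p = 0.0181). Without DMSO replicate 1 or replicate 3, 1 gene of the list passed as a fall, and NMT2 passed when DDD86481 replicate 2 was left out but not when another of the 6 libraries was, with adjusted p from 0.0514 to 0.11. UNC119 did not pass without DDD86481 replicate 1 or DMSO replicate 1 (0.104 and 0.0562), nor UNC119B without DDD86481 replicate 2 or DMSO replicate 3 (0.103 and 0.0539). Of the genes that the fusion joins, neither HRAS (log2 FC 0.00 ± 0.092, adjusted p = 0.989) nor ESR1 (log2 FC 0.00 ± 0.13, adjusted p = 0.999) passed. Gene counts do not separate the fusion from its source genes.

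Genes of protein folding in the ER rose together. Of 28 ER chaperones and folding enzymes tested, 23 rose (82.1%, against 20.1% of all genes) and 0 fell, with a median log2 fold change of 0.61. HSPA5 encodes BiP, the main ER chaperone of the HSP70 family and the sensor partner of the UPR (chromosome 9, 125234853 to 125241343). It had 1256, 1165 and 1091 CPM with DMSO and 4189, 3697 and 3638 CPM with DDD86481, a 3.28-fold rise (log2 FC 1.71 ± 0.15, adjusted p = 2.23e-08). DNAJB9, a co-chaperone of BiP, rose from 43.2, 43.3 and 36.8 to 149, 149 and 131 CPM (log2 FC 1.80 ± 0.16, adjusted p = 2.58e-08). P4HB, the disulphide isomerase that also serves collagen prolyl hydroxylation, rose from 1535, 1548 and 1664 to 3611, 3335 and 3766 CPM (log2 FC 1.17 ± 0.1, adjusted p = 2.61e-08). For these genes the lowest DDD86481 library was more than 2-fold above the highest DMSO library. The members that did not pass were PDIA4, PDIA6, ERP29, SIL1 and UGGT1, with log2 FCs of 0.25, 0.18, 0.19, 0.19 and 0.04.

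Promoters of ER, Golgi and lysosomal genes can carry short elements that UPR factors or TFEB are known to bind, and those below are shown because their genes belong to the groups described here. Each is the 130 bases before a gene's start in RefSeq (GRCh38.p14), 5′ to 3′ in the gene's direction, with matched elements in capitals. HSPA5, XBP1, HSP90B1, CRELD2 and PDIA6 show the ER stress response element (ERSE), which is CCAAT and CCACG with any 9 bases between them on either strand. KDELR3 and COPB1 show the UPR element TGACGTGG, and MCOLN1 the CLEAR element TCACGTGA of lysosomal genes.
HSPA5 (chr9:125241344-125241473, minus strand): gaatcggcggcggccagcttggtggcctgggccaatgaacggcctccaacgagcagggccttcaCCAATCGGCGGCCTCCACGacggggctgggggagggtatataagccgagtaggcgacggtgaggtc
XBP1 (chr22:28800570-28800699, minus strand): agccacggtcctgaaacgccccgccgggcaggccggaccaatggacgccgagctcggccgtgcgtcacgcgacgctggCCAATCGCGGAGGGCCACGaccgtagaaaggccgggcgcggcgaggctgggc
HSP90B1 (chr12:103930280-103930409, plus strand): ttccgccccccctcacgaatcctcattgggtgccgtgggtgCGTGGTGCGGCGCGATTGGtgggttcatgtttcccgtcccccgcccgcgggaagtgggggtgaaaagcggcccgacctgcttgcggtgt
CRELD2 (chr22:49918504-49918633, plus strand): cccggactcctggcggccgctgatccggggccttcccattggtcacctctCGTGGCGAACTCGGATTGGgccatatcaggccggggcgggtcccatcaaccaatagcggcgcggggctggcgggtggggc
PDIA6 (chr2:10812786-10812915, minus strand): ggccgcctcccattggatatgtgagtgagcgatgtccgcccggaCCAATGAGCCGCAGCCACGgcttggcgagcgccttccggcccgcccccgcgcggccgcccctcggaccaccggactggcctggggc
KDELR3 (chr22:38467966-38468095, plus strand): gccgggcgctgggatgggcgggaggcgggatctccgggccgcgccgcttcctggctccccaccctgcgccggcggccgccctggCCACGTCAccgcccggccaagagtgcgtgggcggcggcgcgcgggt
COPB1 (chr11:14499812-14499941, minus strand): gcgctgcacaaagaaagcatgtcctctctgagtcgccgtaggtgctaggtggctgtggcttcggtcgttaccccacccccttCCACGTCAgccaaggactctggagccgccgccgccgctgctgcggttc
MCOLN1 (chr19:7522494-7522623, plus strand): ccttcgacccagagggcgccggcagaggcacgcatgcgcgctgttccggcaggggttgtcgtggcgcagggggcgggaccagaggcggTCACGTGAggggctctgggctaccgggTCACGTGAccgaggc

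The ERSE of HSPA5 lay from 66 to 48 bases before the start and that of XBP1 from 52 to 34. Promoter windows, from 250 bases before to 50 after a start, were at hand for 11104 of the 14341 genes (77.4%). Of the ER chaperones, 7 of 26 (26.9%) held an ERSE, against 16 of 11104 genes tested (0.144%). Among genes that rose at least 2-fold it was in 2 of 512 (0.391%), and among those that fell at least 2-fold in 0 of 648. The UPR element was in 12 of 512 (2.34%) of the first, 5 of 648 (0.772%) of the second and 134 of 11104 genes (1.21%). PDIA6, with an ERSE 86 to 68 bases before its start, did not pass (log2 FC 0.18 ± 0.1, adjusted p = 0.16). The C/EBP-ATF response element TGATGNAA was in 4 of 16 genes of the ATF4 and CHOP list (25%), 6 of 15 of the amino acid list (40%) and 322 of 11104 (2.9%). Among genes that rose and fell at least 2-fold it was in 21 of 512 (4.1%) and 28 of 648 (4.32%). Of its holders in the ATF4 and CHOP list, ATF3 rose (log2 FC 0.96) and JDP2 fell (-0.42), while CHAC1 (-0.66) and CEBPG (0.30) did not pass. In the amino acid list, those with the element before the start were ASNS (0.34) and SLC1A5 (0.07), which did not pass. The lists hold genes known as targets of these factors, and a match of letters was not tested for binding.

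ER-associated degradation, which returns misfolded proteins to the cytosol for the proteasome, followed the chaperones. Of 25 genes tested, 15 rose and 0 fell, with a median of 0.44. HERPUD1, which assembles the degradation complex at the ER membrane (chromosome 16, 56932142 to 56944864), rose from 73.3, 80.2 and 73.2 to 317, 315 and 288 CPM (log2 FC 2.02 ± 0.14, adjusted p = 1.75e-09), 4.06-fold. ERLEC1, a lectin that hands over glycoproteins, rose from 170, 166 and 154 to 329, 353 and 341 CPM (log2 FC 1.06 ± 0.095, adjusted p = 3.44e-08). DERL1, a channel subunit, had 142, 185 and 196 CPM with DDD86481 against 86.9, 84.8 and 88.8 with DMSO (log2 FC 1.01 ± 0.11, adjusted p = 3.56e-07), with DDD86481 replicate 1 the lowest of the 3. The ubiquitin ligase SYVN1 and its partner SEL1L rose with log2 FCs of 0.92 and 0.78.

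Among 15 ER stress sensors, their factors and kinases, 8 rose and 2 fell (median 0.29). EIF2AK3 (PERK), a sensor that phosphorylates eIF2alpha, rose from 27.3, 25.8 and 27 to 85.1, 81.5 and 110 CPM (log2 FC 1.78 ± 0.15, adjusted p = 2.35e-08). CREB3, a transcription factor held in ER and Golgi membranes, rose from 93.1, 89 and 105 to 291, 232 and 231 CPM (log2 FC 1.39 ± 0.12, adjusted p = 1.69e-08). XBP1 rose from 87.5, 91.5 and 92.4 to 195, 159 and 152 CPM (log2 FC 0.90 ± 0.12, adjusted p = 7.25e-06), without overlap of the groups. ERN1 (IRE1), the sensor that splices XBP1, did not pass (log2 FC 0.18 ± 0.15), and gene counts do not show splicing. The falls were in CREB3L1 (log2 FC -0.52), a relative of CREB3 that activates collagen genes, and EIF2AK4 (log2 FC -0.28), a sensor of amino acid shortage. Without DDD86481 replicate 2, or without DMSO replicate 1, the list had 1 fall.

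**Figure D2:**
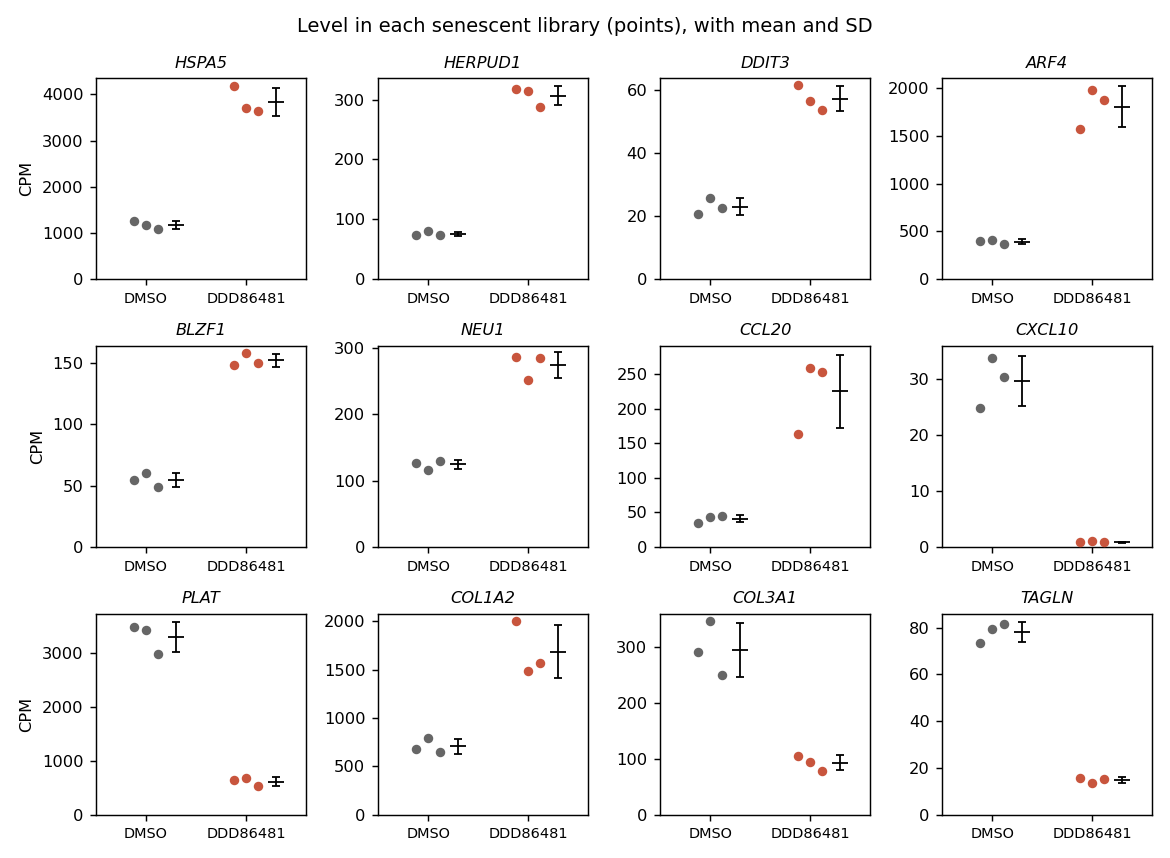
Level in CPM (vertical axis, from 0) of 12 genes in each senescent library, with DMSO in grey and DDD86481 in red, and the mean and SD of each group beside the points (n = 3 libraries). In each of the 12 genes the groups do not overlap: HSPA5, HERPUD1, DDIT3, ARF4, BLZF1, NEU1, CCL20 and COL1A2 were higher, and CXCL10, PLAT, COL3A1 and TAGLN lower, with DDD86481.

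The ATF4 and CHOP arm moved in most but not all of its genes. Of 18 factors and effectors tested, 11 rose and 2 fell (median 0.60). ATF4 rose from 146, 208 and 179 to 460, 437 and 419 CPM (log2 FC 1.30 ± 0.14, adjusted p = 3.04e-07), and DDIT3, which encodes CHOP, from 20.7, 25.8 and 22.7 to 61.7, 56.6 and 53.8 CPM (log2 FC 1.31 ± 0.2, adjusted p = 2.56e-05). NUPR1, a stress-induced chromatin protein, rose from 2.35, 3.74 and 3.24 to 7.92, 8.67 and 8.03 CPM (log2 FC 1.40 ± 0.17, adjusted p = 1.98e-06), below the 117 ± 17.8 CPM (SD, n = 3) of control cells given DMSO. The falls were in STC2 (log2 FC -0.85) and JDP2 (log2 FC -0.42), and the list had 1 fall without DDD86481 replicate 2. CHAC1, a glutathione-degrading enzyme often used as a readout of ATF4, had 87.3, 97.9 and 83.2 CPM with DMSO and 67.2, 54.6 and 48.1 CPM with DDD86481 and did not pass (log2 FC -0.66 ± 0.27, adjusted p = 0.057), though it fell with the 6 libraries fitted alone (adjusted p = 0.000516) and under upper quartile scaling or a replicate block (0.0489 and 0.0284). TRIB3, a CHOP-induced inhibitor of signalling, rose (log2 FC 0.58 ± 0.18, adjusted p = 0.0112), with an adjusted p of 0.0594 without DDD86481 replicate 1. Of shared exonic bases, DDIT3 has 27.2% with MARS1, NUPR1 16.5% and INHBE 16.4% with other genes.

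Amino acid supply showed rises without falls. Of 21 genes of amino acid synthesis and transport, 11 rose and 0 fell (median 0.45). CTH, which makes cysteine, rose from 12.9, 12 and 12 to 29.6, 36.3 and 33.8 CPM (log2 FC 1.44 ± 0.2, adjusted p = 1.11e-05). ALDH18A1, of proline synthesis, rose from 108, 100 and 107 to 227, 207 and 206 CPM (log2 FC 1.02 ± 0.099, adjusted p = 9.65e-08), and SLC38A1, a glutamine transporter, from 66.7, 90.9 and 74 to 141, 157 and 195 CPM (log2 FC 1.09 ± 0.14, adjusted p = 4.68e-06). PSAT1 and PSPH, of serine synthesis, did not pass, with log2 FCs of 0.00 and -0.26. ASNS, asparagine synthetase, stood at 0.432, 0.809 and 1.21 CPM with DMSO and 0.71, 1.1 and 1.35 CPM with DDD86481, and 49.3% of its exonic bases lie in another gene as well, so its level is uncertain. Cytosolic tRNA synthetases showed 7 rises and 2 falls of 20 (median 0.04; 1 fall without DDD86481 replicate 2 or DMSO replicate 3, with no filter or with the 6 libraries alone), with log2 FCs of 0.56 ± 0.086 for NARS1, 0.60 ± 0.11 for RARS1 and 0.52 ± 0.097 for EPRS1. Their share of rises, 35%, is read against the 20.1% of all genes.

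At the Golgi, ARF4 rose, while the other ARFs tested did not pass. ARF4, a GTPase of the early secretory pathway (chromosome 3, 57571363 to 57597344), went from 402, 410 and 367 CPM with DMSO to 1569, 1979 and 1872 CPM with DDD86481, a 4.6-fold rise (log2 FC 2.20 ± 0.13, adjusted p = 2.46e-10). ARF1 had 739, 698 and 781 CPM with DMSO and 741, 720 and 793 CPM with DDD86481 (log2 FC 0.02 ± 0.086, adjusted p = 0.851), and ARF3, ARF5 and ARF6 had log2 FCs of -0.08, -0.20 and -0.04. Of 18 genes of the COPI coat and ARF machinery, 8 rose and 1, COPG2, fell (median 0.29). ARFGAP1, which switches ARF1 off, rose from 171, 152 and 178 to 328, 264 and 268 CPM (log2 FC 0.78 ± 0.1, adjusted p = 4.32e-06), and the coat subunit COPB1 from 273, 262 and 258 to 377, 390 and 398 CPM (log2 FC 0.56 ± 0.078, adjusted p = 9.41e-06). ARF4 shares 18.5% of its exonic bases with its antisense gene.

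The COPII coat, which carries cargo out of the ER, rose in 9 of 14 genes with 0 falls (median 0.41), or 1 fall without DDD86481 replicate 3. Its GTPases SAR1A (log2 FC 0.62 ± 0.082, adjusted p = 5.1e-06) and SAR1B (log2 FC 0.70 ± 0.094, adjusted p = 5.59e-06) were among them, with SAR1A at 155, 161 and 151 CPM with DMSO and 229, 252 and 236 CPM with DDD86481. KDEL receptors and p24 proteins, which sort cargo between ER and Golgi, rose in 6 of 12 genes with 0 falls (median 0.28). KDELR3, whose receptor returns chaperones to the ER, rose from 209, 198 and 207 to 324, 409 and 402 CPM (log2 FC 0.89 ± 0.12, adjusted p = 4.45e-06), and KDELR2 from 390, 364 and 357 to 578, 580 and 577 CPM (log2 FC 0.64 ± 0.095, adjusted p = 1.63e-05). Golgins and Golgi tethers rose in 12 of 16 genes with 0 falls (median 0.46). BLZF1, which encodes golgin-45, rose from 54.6, 60.1 and 48.8 to 148, 158 and 150 CPM (log2 FC 1.48 ± 0.13, adjusted p = 1.87e-08). TMF1 and GOLGA1 rose with log2 FCs of 0.73 ± 0.098 and 0.83 ± 0.12, and the groups did not overlap in BLZF1, TMF1 or GOLGA1. TMED7 rose too (log2 FC 0.70 ± 0.12, adjusted p = 6.16e-05) although a readthrough gene covers 20% of its exonic bases, and GOLGA1 shares 14.6% with SCAI. The UPR element of KDELR3, printed above, lay from 46 to 39 bases and that of COPB1 from 48 to 41 bases before the start. This element was in 5 of 16 genes of the COPI and ARF list with promoter windows (31.2%). Beside COPB1, those of the list with the element before the start were COPB2, which rose (log2 FC 0.3), and ARF1, which did not pass (log2 FC 0.02).

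**Figure D3:**
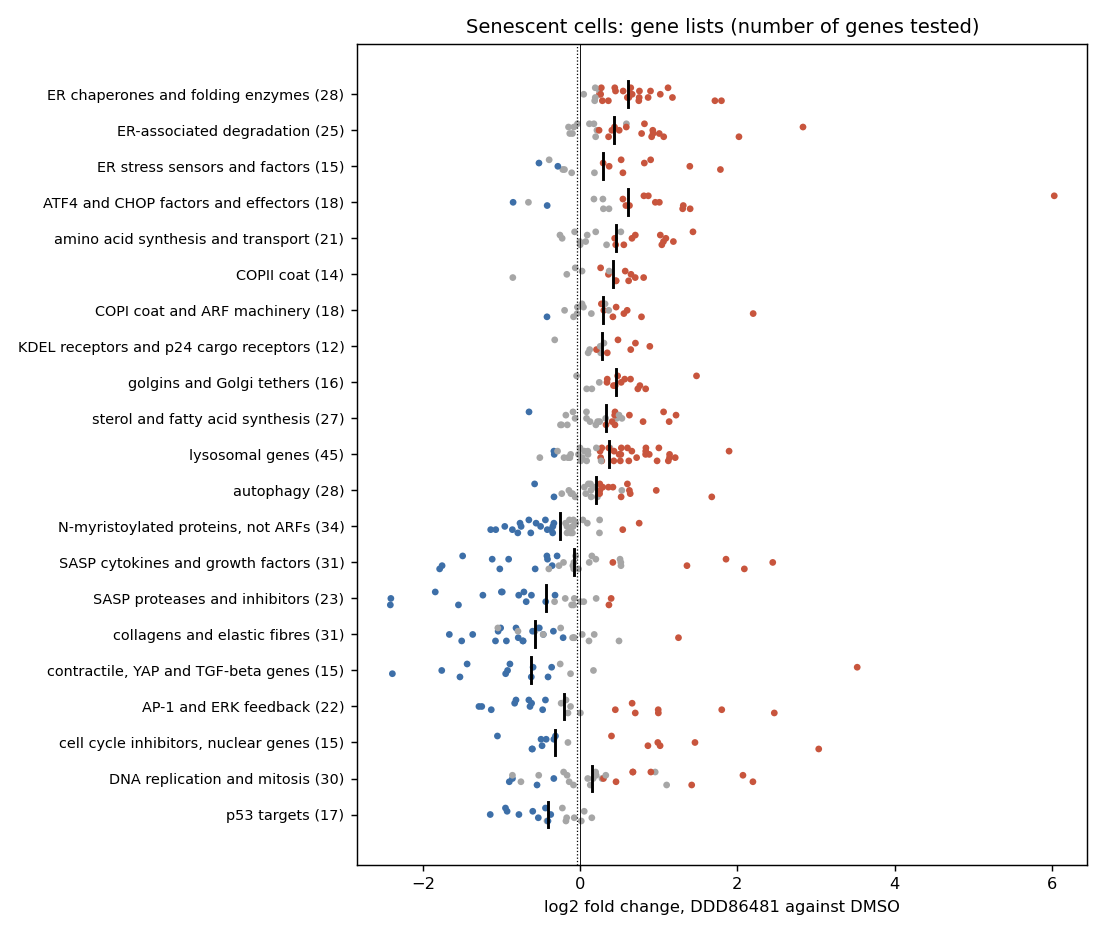
Log2 fold change of DDD86481 against DMSO in senescent cells (horizontal axis) for the members of 21 gene lists, 1 point a gene, with the number of genes tested in brackets. Red points rose, blue points fell and grey points did not pass. The black bar is the list's median, the dotted line the median of all genes (-0.04), and genes at or under the floor in 1 group are not drawn. ER, COPII, Golgi and lysosomal lists lie to the right of the dotted line, and contractile, collagen and SASP protease lists to the left.

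Lysosomal genes rose in 26 of 45 cases and fell in 2 (median 0.36). NEU1, a lysosomal sialidase, rose from 127, 116 and 130 to 286, 251 and 284 CPM (log2 FC 1.14 ± 0.088, adjusted p = 6.6e-09), and ASAH1, acid ceramidase, from 136, 129 and 114 to 273, 295 and 266 CPM (log2 FC 1.14 ± 0.12, adjusted p = 3.42e-07). CTSF, a cathepsin, rose from 18.6, 19 and 19 to 50.1, 36.6 and 36.5 CPM (log2 FC 1.12 ± 0.13, adjusted p = 6.41e-07), with DDD86481 replicate 1 highest. The proton pump subunits ATP6V0D1, ATP6V1C1, ATP6V1D and ATP6V1E1 rose with log2 FCs of 0.51, 0.66, 0.60 and 0.62. RRAGD, FNIP1 and FNIP2, which link lysosomes to mTORC1 and the factors TFEB and TFE3, rose with log2 FCs of 1.89, 0.98 and 1.21. The membrane proteins LAMP1 (log2 FC 0.01) and LAMP2 (-0.13) did not pass, and TFE3 and CTSZ fell, each with a log2 FC of -0.33. The CLEAR element, shown above for the lysosomal channel gene MCOLN1 (log2 FC 0.84 ± 0.11, adjusted p = 3.2e-06), was in 5 of 30 lysosomal windows (16.7%) and 237 of 11104 (2.13%). Of genes that rose at least 2-fold, 9 of 512 (1.76%) held the CLEAR element, and of those that fell at least 2-fold 10 of 648 (1.54%).

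Autophagy genes rose in 12 of 28 cases and fell in 2 (median 0.20), with 1 fall without DDD86481 replicate 2 or 3 or DMSO replicate 1 or 3. SQSTM1, the p62 cargo receptor, rose 3.19-fold, from 1341, 1194 and 1394 to 4584, 3663 and 4294 CPM (log2 FC 1.67 ± 0.095, adjusted p = 1.05e-10). MAP1LC3B, which encodes the LC3B protein of autophagosomes, rose from 276, 288 and 269 to 389, 456 and 449 CPM (log2 FC 0.64 ± 0.092, adjusted p = 1.36e-05), and ATG13, of the initiating kinase complex, with a log2 FC of 0.60 ± 0.073. SQSTM1 shares 21% of its exonic bases with MRNIP on the opposite strand. Sterol and fatty acid synthesis showed 10 rises and 1 fall of 27 (median 0.32). INSIG1, the sterol-sensing brake of this pathway, rose from 176, 140 and 129 to 360, 278 and 399 CPM (log2 FC 1.22 ± 0.2, adjusted p = 5.27e-05), and IDI1, which makes an isoprenoid precursor, from 198, 193 and 189 to 376, 443 and 451 CPM (log2 FC 1.13 ± 0.1, adjusted p = 5.74e-08). HMGCS1 rose (log2 FC 0.80 ± 0.15), with DDD86481 replicate 3 highest, and shares 37.7% of its exonic bases, IDI1 15%, with other genes. Without DDD86481 replicate 1 the number of sterol genes that rose was 16, and the falls were from 0 to 2 without 1 library.

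Transcripts of proteins that carry myristate fell more often than they rose. Of 34 known N-myristoylated proteins other than the ARFs, 2 rose and 17 fell, with a median of -0.26. FYN, a SRC family kinase, fell from 70.2, 78.6 and 69.5 to 34, 32.5 and 32.6 CPM (log2 FC -1.14 ± 0.11, adjusted p = 6.14e-08). HPCAL1, a calcium sensor, fell from 411, 358 and 429 to 195, 192 and 181 CPM (log2 FC -1.07 ± 0.086, adjusted p = 9.27e-09), and MARCKSL1, an actin regulator at the membrane, from 240, 237 and 267 to 130, 123 and 130 CPM (log2 FC -0.96 ± 0.11, adjusted p = 7.22e-07). The kinases SRC, LYN and ABL1 fell with log2 FCs of -0.35, -0.56 and -0.65, YES1 (-0.17) did not pass, and the mitochondrial proteins CHCHD3 and SAMM50 rose with log2 FCs of 0.75 and 0.54. The fall share, 50%, is read against the 23.1% of all genes.

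Among SASP cytokines, falls exceeded the share of all genes and rises did not. Of 31 tested, 5 rose (16.1%, against 20.1% of all genes) and 11 fell (35.5%, against 23.1%), with a median of -0.08. CCL20, a chemokine for CCR6-bearing lymphocytes and dendritic cells (chromosome 2, 227813842 to 227817556), rose 5.47-fold, from 35.3, 43.6 and 44.8 to 164, 259 and 253 CPM (log2 FC 2.45 ± 0.19, adjusted p = 8.33e-09). CXCL2, a neutrophil chemokine, rose from 86, 97.2 and 92.1 to 366, 406 and 399 CPM (log2 FC 2.09 ± 0.12, adjusted p = 1.87e-10), and CSF3, which encodes G-CSF, from 248, 258 and 299 to 674, 696 and 695 CPM (log2 FC 1.36 ± 0.1, adjusted p = 5.98e-09). The groups did not overlap in any of these chemokines and cytokines. CCL26 and LIF also rose, with log2 FCs of 1.86 and 0.42. The monocyte chemokines CCL2 and CCL7 fell with log2 FCs of -1.79 and -1.76, as did HGF (-1.50), CXCL6 (-1.12), AREG (-1.02) and NRG1 (-0.91). The count of rises was 3 without DDD86481 replicate 2 or DMSO replicate 1, and 8 when the 6 libraries were fitted alone.

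Of IL1A, IL1B, IL6 and CXCL8, well-known interleukins and chemokines of the SASP, IL1B fell and the others did not pass. IL1A had 196, 232 and 197 CPM with DMSO and 177, 243 and 195 CPM with DDD86481, with overlapping groups (log2 FC -0.02 ± 0.16, adjusted p = 0.93). IL1B fell from 6831, 6300 and 6786 to 5218, 5208 and 5127 CPM (log2 FC -0.36 ± 0.12, adjusted p = 0.0248), a 1.28-fold fall that did not pass without DDD86481 replicate 2 or 3 or DMSO replicate 1 or 3, with adjusted p from 0.0577 to 0.076. IL6 had 144, 191 and 171 CPM with DMSO and 194, 285 and 245 CPM with DDD86481 (log2 FC 0.52 ± 0.26, adjusted p = 0.121), and CXCL8 7301, 7435 and 6238 and 10609, 10372 and 8825 CPM (log2 FC 0.51 ± 0.28, adjusted p = 0.155). The DDD86481 libraries lay above the DMSO libraries for IL6 and CXCL8, by a small margin for IL6. With the 6 libraries fitted alone both rose, with log2 FCs of 0.55 and 0.54 and adjusted p of 0.0029 and 0.000463.

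Of 23 SASP proteases, inhibitors and IGF-binding proteins, 2 rose and 13 fell (median -0.44). PLAT, tissue plasminogen activator, fell 5.34-fold, from 3470, 3423 and 2970 to 637, 687 and 524 CPM (log2 FC -2.42 ± 0.14, adjusted p = 1.03e-10). IGFBP3, which binds insulin-like growth factors, fell from 96.1, 123 and 102 to 17.9, 21.8 and 20.7 CPM (log2 FC -2.41 ± 0.13, adjusted p = 7.07e-11), and TIMP3, a metalloproteinase inhibitor, from 222, 215 and 225 to 63, 53.6 and 67.8 CPM (log2 FC -1.84 ± 0.13, adjusted p = 1.53e-09). The groups were apart in each of these. SERPINB2 and IGFBP5 fell with log2 FCs of -1.55 and -0.99. MMP1, a collagenase, did not pass, at 16223, 13448 and 13077 CPM with DMSO and 14803, 12603 and 12230 CPM with DDD86481 (log2 FC -0.11 ± 0.12, adjusted p = 0.492). The rises were in MMP3 (log2 FC 0.39 ± 0.16, adjusted p = 0.0474) and IGFBP6 (log2 FC 0.37), and neither passed without DDD86481 replicate 1 or without DMSO replicate 2. MMP3 also did not pass without DDD86481 replicate 3 or DMSO replicate 3 (adjusted p = 0.0526 and 0.146), or under upper quartile scaling (0.0529). Interferon-stimulated genes showed 4 rises and 6 falls of 27, near the shares of all genes, and beside CXCL10 and CXCL11 the falls included the RNA sensor gene DDX58 (log2 FC -1.24 ± 0.13). Their median of 0.15 was 0.08 with 3 genes at the floor set to their bounds.

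Collagen and elastic fibre genes fell in 17 of 31 cases and rose in 1 (median -0.58, or -0.54 with ELN at its bound). The type I collagen chains, which assemble together, moved apart. COL1A1 (chromosome 17, 50184101 to 50201631) fell from 3338, 3390 and 2895 to 1494, 965 and 924 CPM (log2 FC -1.51 ± 0.18, adjusted p = 1.38e-06), while COL1A2 (chromosome 7, 94394895 to 94431227) rose from 681, 796 and 647 to 2004, 1489 and 1564 CPM (log2 FC 1.25 ± 0.14, adjusted p = 6.69e-07). COL3A1 fell from 291, 346 and 250 to 106, 94.5 and 79.2 CPM (log2 FC -1.67 ± 0.16, adjusted p = 9.31e-08), and POSTN, a matrix protein of wound repair, from 344, 354 and 255 to 138, 176 and 138 CPM (log2 FC -1.08 ± 0.12, adjusted p = 7.37e-07). The groups did not overlap in either chain, and DDD86481 replicate 1 was the highest DDD86481 library for COL1A1, COL1A2 and COL3A1 alike. COL4A1, COL4A5, COL6A3 and COL12A1, named after their values were seen, as was COL1A1, fell with log2 FCs of -1.04, -1.31, -1.01 and -1.37.

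Contractile genes and targets of YAP and TGF-beta fell in 11 of 15 cases and rose in 1 (median -0.62). TAGLN, an actin-binding protein of smooth muscle and myofibroblasts (chromosome 11, 117199294 to 117207465), fell 5.24-fold, from 73.4, 79.6 and 81.5 to 15.9, 13.5 and 15.3 CPM (log2 FC -2.39 ± 0.17, adjusted p = 2.74e-09). ACTA2, smooth muscle actin, fell from 89.8, 88.9 and 99.3 to 28.8, 35.7 and 31.7 CPM (log2 FC -1.53 ± 0.12, adjusted p = 5.64e-09), and TPM1 from 426, 467 and 506 to 175, 181 and 160 CPM (log2 FC -1.44 ± 0.12, adjusted p = 1.22e-08). The rise was in ANKRD1, a YAP target, from 0.432, 0.809 and 0.714 to 6.44, 7.89 and 8.46 CPM (log2 FC 3.53 ± 0.39, adjusted p = 5.14e-07), while the YAP targets CCN1 (log2 FC -0.95), CCN2 (-0.92) and AMOTL2 (-0.89) fell. THBS1, which encodes thrombospondin and was named after its values were seen, fell from 1117, 1669 and 1107 to 255, 383 and 253 CPM (log2 FC -2.13 ± 0.21, adjusted p = 1.59e-07). TAGLN, ACTA2 and TPM1 share 38.1%, 29.1% and 18% of their exonic bases with other genes. Of 8 fibroblast markers, 5 fell and 2 rose, among the falls THY1 (log2 FC -1.34 ± 0.1, adjusted p = 7.08e-09).

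Markers of other cell types are given beside these results. Of 4 endothelial markers tested, TEK (log2 FC -1.51 ± 0.23, adjusted p = 2.55e-05) and CDH5 (log2 FC -2.22 ± 0.36, adjusted p = 9.81e-05) fell, VWF did not pass, PECAM1 passed as a fall without DDD86481 replicate 1 (log2 FC -1.09, adjusted p = 0.0117) but in no other fit run, and the summed level of the list ranged from 19.6 to 24.1 CPM with DMSO and from 8.28 to 13.5 CPM with DDD86481. Of the epithelial, leukocyte and muscle lists, 2 markers each were tested and 0 passed, although CLDN4 passed as a rise without DDD86481 replicate 2 (adjusted p = 0.0495). The epithelial sum ranged from 9.9 to 11.8 CPM with DMSO and from 10.6 to 14.9 CPM with DDD86481, and the muscle sum stayed at or under 0.373 CPM. The leukocyte sum ranged from 119 to 150 CPM with DMSO and from 91.7 to 141 CPM with DDD86481. It was nearly all CD68, which shares 81.6% of its exonic bases with another gene. Their part in the results above was not tested.

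Cell cycle inhibitors split by gene. CDKN1A (p21) fell from 1952, 2160 and 2265 to 1255, 1474 and 1437 CPM (log2 FC -0.61 ± 0.11, adjusted p = 0.000112) and CDKN2B (p15) from 215, 246 and 218 to 113, 106 and 108 CPM (log2 FC -1.05 ± 0.11, adjusted p = 3.86e-07). CDKN2C (p18) rose from 0.802, 0.809 and 0.714 to 6.93, 7.37 and 4.78 CPM (log2 FC 3.04 ± 0.25, adjusted p = 1.2e-08) and CDKN1C (p57) from 4.14, 2.93 and 2.97 to 10.8, 6.53 and 10.4 CPM (log2 FC 1.46 ± 0.25, adjusted p = 9.35e-05). Control cells given DMSO had more of both, with 13.5 ± 2.66 CPM of CDKN2C and 20.9 ± 5.46 CPM of CDKN1C (SD, n = 3). Of 15 inhibitors and senescence-linked nuclear genes, 6 rose and 8 fell (median -0.31), with 4 falls without DDD86481 replicate 2 or DMSO replicate 3. CDKN2A (p16) fell (log2 FC -0.43 ± 0.14, adjusted p = 0.0161), and did not pass without DDD86481 replicate 2 or 3 or DMSO replicate 3 (adjusted p = 0.0682, 0.0771 and 0.0702). The lamin gene LMNB1 rose (log2 FC 0.99 ± 0.33, adjusted p = 0.0185) with overlapping groups, and did not pass without DDD86481 replicate 1 or DMSO replicate 2 (adjusted p = 0.171 and 0.107). CDKN2A and CDKN2C share 15.3% and 20.4% of their exonic bases with genes on the opposite strand.

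Genes of DNA replication and mitosis, which are low in senescent cells, rose in 8 of 30 cases and fell in 4 (median 0.15). These shares, 26.7% and 13.3%, are read against the 20.1% and 23.1% of all genes. CDC6, which loads the replicative helicase, rose from 1.79, 1.12 and 1.26 to 5.19, 6.95 and 5.4 CPM (log2 FC 2.07 ± 0.22, adjusted p = 3.58e-07), RRM1, a subunit that makes deoxynucleotides, from 46.1, 45.4 and 45.7 to 72.6, 73.8 and 72.1 CPM (log2 FC 0.67 ± 0.081, adjusted p = 1.46e-06), and AURKB, a mitotic kinase, from 1.3, 1.18 and 1.1 to 3.77, 2.98 and 2.82 CPM (log2 FC 1.42 ± 0.22, adjusted p = 2.54e-05). Control cells given DMSO had 11.3 ± 0.675, 71.5 ± 3.91 and 5.64 ± 0.791 CPM (SD, n = 3) of CDC6, RRM1 and AURKB, above the senescent levels of CDC6 and AURKB with DDD86481. TOP2A, CCNB1, CDC20 and MCM5 fell, with log2 FCs of -0.90, -0.34, -0.86 and -0.55, and MKI67 (-1.03) did not pass. The falls were 2 without DDD86481 replicate 1, DMSO replicate 1 or DMSO replicate 3.

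Targets of p53 fell in 9 of 17 cases with 0 rises (median -0.41). DDB2, of DNA repair, fell from 43.8, 42.4 and 50.3 to 15.8, 22.3 and 23.7 CPM (log2 FC -1.14 ± 0.16, adjusted p = 7.6e-06), FAS, a death receptor, from 18.5, 22.8 and 20.3 to 9.61, 12.9 and 9.32 CPM (log2 FC -0.95 ± 0.13, adjusted p = 8.07e-06) and TP53I3 with a log2 FC of -0.93 ± 0.13. MDM2 and GADD45A did not pass, with log2 FCs of 0.01 and 0.15. In the BCL2 family and death receptors, 1 of 18 genes rose and 6 fell (median -0.19). These shares, 5.56% and 33.3%, are read against the 20.1% and 23.1% of all genes. BNIP3L, a mitophagy receptor, rose from 272, 296 and 242 to 414, 444 and 439 CPM (log2 FC 0.68 ± 0.093, adjusted p = 6.82e-06), and PMAIP1 (NOXA) and MCL1 fell with log2 FCs of -0.92 ± 0.16 and -0.58 ± 0.1. BCL2 and BCL2L1 did not pass, with log2 FCs of -0.27 and -0.11. FAS shares 25.7% of its exonic bases with an opposite-strand gene.

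Among AP-1 factors and feedback genes of ERK signalling, which oncogenic RAS drives, 7 of 22 rose and 10 fell (median -0.21). Of the ERK feedback inhibitors in the list, DUSP4 fell from 129, 130 and 135 to 60.1, 53.4 and 47.4 CPM (log2 FC -1.29 ± 0.11, adjusted p = 2.23e-08), SPRED1 from 109, 106 and 79.3 to 46.1, 40 and 37.5 CPM (log2 FC -1.25 ± 0.13, adjusted p = 1.94e-07) and SPRY4 from 291, 239 and 208 to 120, 107 and 110 CPM (log2 FC -1.13 ± 0.12, adjusted p = 2.77e-07). SPRED2 and DUSP6 also fell (log2 FCs of -0.83 and -0.44), and DUSP5 (-0.24) and SPRY2 (-0.16) did not pass. These last 4 were named after their values were seen, and DUSP9, which rose, is not in the list. FOS, FOSB, JUNB and JUND rose with log2 FCs of 2.47, 1.80, 0.99 and 0.99. EGR1 did not pass (log2 FC -0.12).

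Antioxidant genes showed 3 rises and 3 falls of 17 (17.6% each, median -0.08), neither above the 20.1% and 23.1% of all genes. HMOX1, haem oxygenase, rose from 21.6, 15.4 and 19 to 130, 80.1 and 244 CPM (log2 FC 3.02 ± 0.33, adjusted p = 3.9e-07), with replicate 2 the lowest and replicate 3 the highest of the DDD86481 libraries. FTL, ferritin light chain, rose from 3921, 3203 and 3797 to 7854, 7378 and 7693 CPM (log2 FC 1.07 ± 0.11, adjusted p = 2.99e-07), and NQO1 fell from 266, 247 and 233 to 116, 113 and 100 CPM (log2 FC -1.18 ± 0.1, adjusted p = 3.26e-08), with 19.4% of its exonic bases shared. Cytosolic ribosomal proteins rose in 16 of 82 genes and fell in 3 (median 0.19), with log2 FCs of 0.65 ± 0.18 for RPL13A, 0.62 ± 0.11 for RPL10 and -0.98 ± 0.17 for RPL22L1, and 35.9% of the exonic bases of RPL10 shared with DNASE1L1. Without DDD86481 replicate 1 their rises were 4, without DMSO replicate 1 or 2 they were 5, and with the 6 libraries fitted alone they were 31. Their falls were 1 without DDD86481 replicate 3 or any 1 of the DMSO libraries. Subunits and assembly factors of mitochondrial complex I rose in 7 of 46 genes and fell in 1 (median 0.08), led by NDUFA5 (log2 FC 1.07 ± 0.16, adjusted p = 1.52e-05), and rises were 13 with the 6 libraries alone. Proteasome subunits rose in 6 of 37 genes and fell in 3 (median 0.05), and the rises were from 2 to 3 without DDD86481 replicate 1 or 2 or DMSO replicate 1 or 2, and the falls 1 without DMSO replicate 1 or 3. Ribosomal, complex I and proteasome rises were 19.5%, 15.2% and 16.2% of genes, none above the 20.1% of all genes. Their falls were 3.66%, 2.17% and 8.11%, against 23.1% of all genes.

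Whether the response belonged to senescent cells was asked with the control cells, which received the same dose for the same time. In control cells 5242 genes passed (36.6%), with 2554 that rose (17.8%) and 2688 that fell (18.7%). Under upper quartile scaling 2088 rose and 3258 fell, so rises were 39.1% of calls instead of 48.7%. The difference between the effects, an interaction term over the 12 libraries in the same fit, passed for 4351 genes (30.3%), of which 2068 were more positive and 2283 more negative in senescent cells. The larger side turned with upper quartile scaling, at 2392 and 2052, and with the stricter filter, at 2469 and 1994. Genes higher in both states numbered 1102 (17.8% of the calls in senescent cells), genes lower in both 1064 (17.2%), and genes called in opposite directions 174 and 273 (2.81% and 4.41%). At least 2-fold, 2.43% of genes rose and 4.07% fell in control cells, and 4.28% and 5.56% passed the interaction upwards and downwards. An interaction is in the same log2 unit, and its background shares are 14.4% upwards and 15.9% downwards. Control DMSO replicates 1 and 3 differed by a chi-square of 101 per gene, against 5.09 to 26.8 within the senescent groups used here. Without control DMSO replicate 1 the control and interaction counts were 6317 and 5796, and in fits of only the libraries compared they were 2842 and 3273.

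ER chaperones rose in control cells too, in 17 of 28 genes (median 0.40), and their interaction passed upwards in 5 and downwards in 1, or upwards in 12 without control DDD86481 replicate 1 and in 3 without senescent DDD86481 replicate 1 or DMSO replicate 1. HSPA5 had 822 ± 40 CPM in control cells given DMSO and 1932 ± 564 CPM (SD, n = 3) with DDD86481, and its interaction (0.48 ± 0.2, adjusted p = 0.0784) did not pass. ARF4 rose in control cells (log2 FC 0.88 ± 0.13, adjusted p = 2.81e-05), and its interaction passed (1.32 ± 0.18, adjusted p = 2.9e-05). The interaction also passed for ATF4 (0.99 ± 0.19, adjusted p = 0.000927) and XBP1 (0.63 ± 0.17, adjusted p = 0.0103), which did not pass in control cells, and DDIT3 did not pass (-0.29 ± 0.28, adjusted p = 0.452). Golgins and lysosomal genes rose in 13 of 16 and 25 of 45 genes in control cells, with median interactions of -0.02 and 0.01. ER stress sensors rose there in 9 of 15 and ATF4 and CHOP genes in 9 of 18, with median interactions of -0.2 and -0.14. Amino acid genes rose in 13 of 21 (7 with the 6 control libraries alone). Sterol genes rose in 18 of 27, and their interaction passed upwards in 1 and downwards in 10, or downwards in 3 without control DDD86481 replicate 1.

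Other groups moved differently between the states. Genes of DNA replication and mitosis fell in 28 of 30 cases in control cells (median -1.69), and the interaction passed upwards in 27 of 30 (median 1.61). Complex I fell in 29 of 46, the proteasome in 27 of 37 and ribosomal proteins in 24 of 82 genes in control cells, and the interaction passed upwards in 23, 18 and 33 of them and downwards in 0. The falls of ribosomal proteins in control cells were 70 without control DMSO replicate 1 and from 5 to 7 without control DMSO replicate 3 or control DDD86481 replicate 1 or 3, and those of the proteasome were 13 without control DMSO replicate 3. Without senescent DMSO replicate 1 the upward interactions were 14, 8 and 15, and without control DMSO replicate 1 those of complex I and ribosomal proteins were 37 and 66. With the 6 control libraries alone, 13, 5 and 5 genes of these lists fell. Collagens and elastic fibres fell in 6 and rose in 7 of 31 in control cells (median 0.03), with 13 downward interactions. PLAT had 1389 ± 112 CPM in control cells with DMSO and 1805 ± 207 CPM with DDD86481, a rise (log2 FC 0.38 ± 0.13, adjusted p = 0.0269), with an interaction of -2.79. TIMP3 and COL3A1 also rose in control cells, with log2 FCs of 0.36 and 0.61, and their interactions were -2.20 and -2.27. FYN, DUSP4, SPRED1 and SPRY4 did not pass in control cells, and their interactions of -1.14, -1.44, -1.27 and -1.33 passed. TAGLN fell in control cells as well, from 1410 ± 304 to 370 ± 74.8 CPM, and its interaction (-0.46 ± 0.23, adjusted p = 0.131) did not pass.

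Of the 12 genes with the largest interactions by the naming rule, ANKRD1 and CXCL10 were above the floor in each group. ANKRD1 had 1.39 ± 0.665 CPM in control cells with DMSO and 0.358 ± 0.0198 CPM with DDD86481, with an interaction of 5.43 ± 0.63, adjusted p = 5.04e-06, and CXCL10 2.1 ± 0.511 and 1.63 ± 0.672 CPM, with one of -4.70 ± 0.45, adjusted p = 4.67e-07. The other genes were at or under the floor in at least 1 group, and their levels are given without a fold. ARC did not exceed the floor in control cells with or without DDD86481. HSPA6 had 0.197 ± 0.137 CPM in control cells with DMSO and 0.325 ± 0.129 CPM with DDD86481. ERCC6L and KIF20A, genes of mitosis, went from 2.97 ± 0.251 and 17 ± 4.4 CPM to 0.532 ± 0.0247 and 2.3 ± 1.08 CPM in control cells. In senescent cells KIF20A had 0.101 ± 0.0399 CPM with DMSO and 0.592 ± 0.15 CPM with DDD86481, and ERCC6L was at or under the floor with both. ACP7 did not exceed the floor in control cells and went from 1.88 ± 0.395 to 4.25 ± 1.28 CPM in senescent cells. On the negative side, BMP5 had 2.89 ± 1.05 and 4.98 ± 1.77 CPM in control cells, EMILIN3 1.33 ± 0.308 and 1.52 ± 0.378 CPM and FNDC5 1.07 ± 0.122 and 1.39 ± 0.244 CPM, and all 3 did not exceed the floor in senescent cells given DDD86481. PTGDR2 had 0.331 ± 0.0427 and 0.693 ± 0.278 CPM in control cells, and ADCY4 was at or under the floor with DMSO and had 0.34 ± 0.123 CPM with DDD86481.

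**Figure D4:**
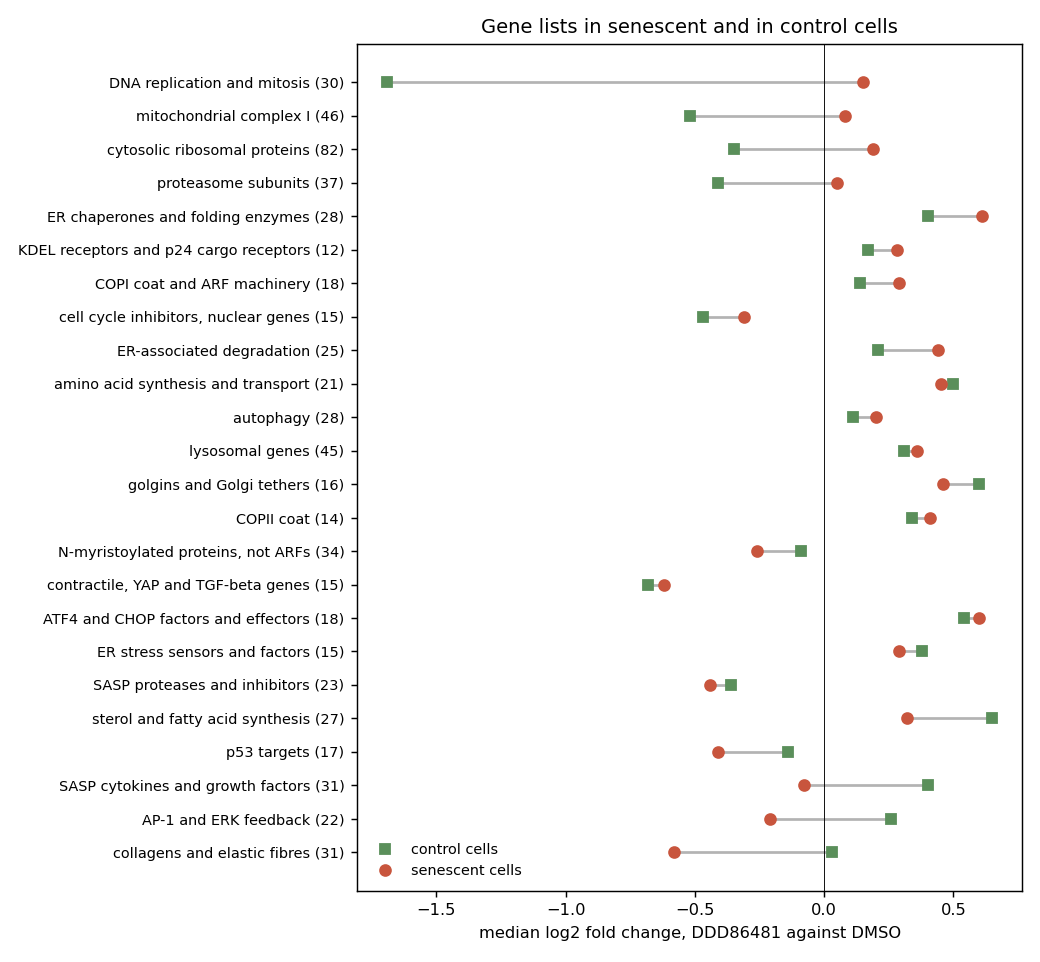
Median log2 fold change of DDD86481 against DMSO (horizontal axis) of 24 gene lists in senescent cells (red circles) and control cells (green squares), ordered by the median interaction, with the number of genes tested in brackets. The longest line is that of DNA replication and mitosis, from -1.69 in control to 0.15 in senescent cells, while lysosomal genes lie at 0.31 and 0.36.

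DDD86481 and IMP1088 were compared in senescent cells to ask whether the inhibitors differ in response. Their doses differ, 1.5 µM and 300 nM, both for 3 days. They share the DMSO libraries as controls, so their effects against DMSO are not set against each other. Taken directly, 0 of 14341 genes passed between them in edgeR and 0 in DESeq2, while 570 and 603 genes had an unadjusted p under 0.05. Deviations of same-numbered libraries of these groups correlated weakly, with r from 0.117 to 0.126. With the replicate number as a block 0 genes passed and 643 had an unadjusted p under 0.05. A p that misses the threshold does not show that the inhibitors act alike, so the intervals of the difference are given. Of 12432 genes with a mean of at least 1 CPM in either group, the 95% interval of the difference lay within 2-fold in 11948 (96.1%) and within 1.5-fold in 9911 (79.7%).

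For the genes of the secretory pathway, HSPA5 had 4648 ± 152 CPM (SD, n = 3) with IMP1088, and the log2 level with DDD86481 minus that with IMP1088 was -0.27 (95% interval -0.57 to 0.03). For ARF4, with 2093 ± 101 CPM with IMP1088, it was -0.21 (95% interval -0.48 to 0.05). The intervals of HERPUD1, at -0.37 (95% interval -0.65 to -0.08) with 395 ± 28.6 CPM with IMP1088, and of DDIT3, at -0.44 (95% interval -0.84 to -0.04), lay below 0 before adjustment. PLAT had 660 ± 126 CPM with IMP1088 and a difference of -0.10 (95% interval -0.37 to 0.17), and CXCL10 one of 0.05 (95% interval -0.84 to 0.94). The intervals of ARC, at 1.44 (95% interval 0.70 to 2.18), and of COL1A1, at 0.44 (95% interval 0.07 to 0.81), lay above 0 before adjustment, and ARC had 7.59 ± 2.26 CPM with IMP1088. APOA4 stood at 9.46 ± 0.517 CPM with IMP1088 and differed by -0.04 (95% interval -0.46 to 0.38). Among all genes the lowest unadjusted p was 0.00044, for IFITM2, with 15 CPM with DDD86481 and 21.1 CPM with IMP1088.

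**Figure D5:**
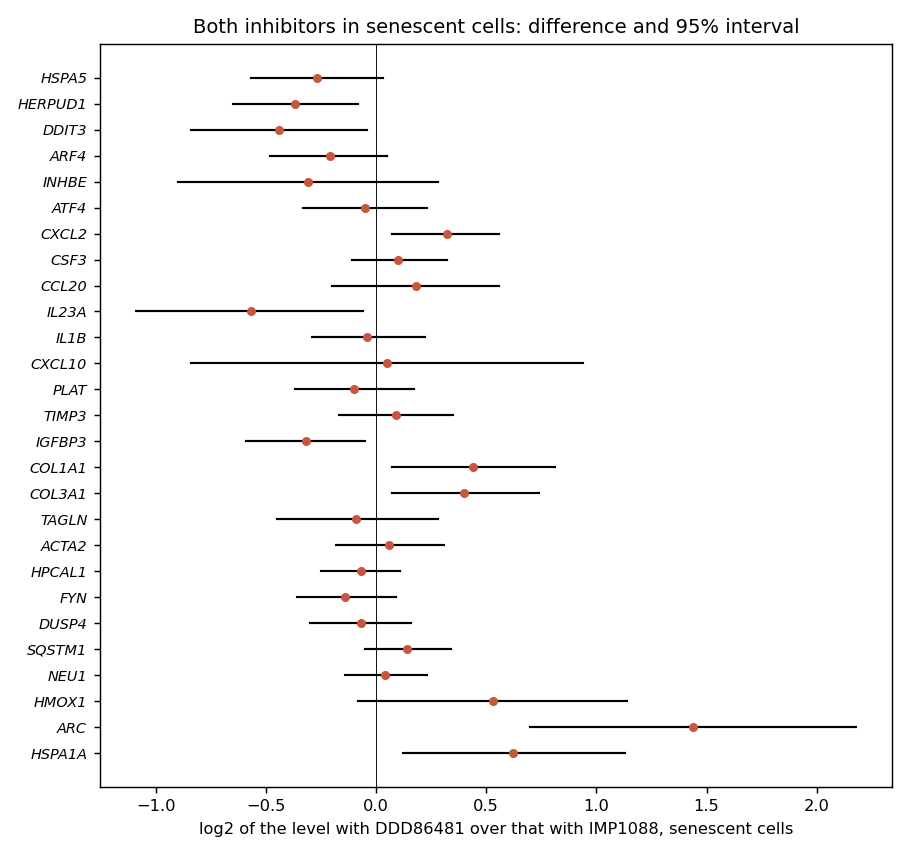
Difference of the log2 level between senescent cells given DDD86481 (1.5 µM) and IMP1088 (300 nM), with its 95% interval, for 27 genes (3 libraries a group). Intervals are not adjusted for the number of genes. The point farthest from 0 is ARC, at 1.44.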

How the data were processed

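RNA of IMR90 ER:RAS cells was sequenced from poly(A)-selected, directional, single-end libraries, and the authors deposited 1 table of raw counts of reads per gene for 18 libraries, with no other values. The submitters' processing notes list DRAGEN, STAR 2.7.8a, DESeq2 1.32.0 and hg38 without their roles, while the study's methods name another aligner, an older build and an older annotation, so the build is not settled. Gene symbols matched RefSeq of GRCh38.p14 best, and positions and promoters come from it. The methods give that aligner a first-strand setting, but the strand setting of the counting is not given in the sources used here, so genes that overlap others share reads to an unknown extent. Shares of overlapped exonic bases come from a GENCODE annotation. The columns name DDD86481 by PCLX001, a name the labels pair with it. Without molecular identifiers, a floor reflects counting error alone.

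Counts were fitted with edgeR 4.0.16 in R 4.3.3 (filterByExpr, TMM, glmQLFit and glmQLFTest, 1 coefficient for each of 6 groups over 18 libraries), since all groups then share 1 estimate of the spread. Genes that passed had a Benjamini-Hochberg adjusted p under 0.05 over the 14341 genes tested, which held 99.962% of all counts. The 18 libraries held 16143716 to 23189950 counts, and a floor of 3 counts per library was 0.157 to 0.187 CPM in the 6 libraries compared. Fitted fold changes are not given against a group at or under that floor. No 2 libraries of a group agreed within sampling noise, since the lowest chi-square per gene was 5.09. On simulated counts of 14241 genes for the DDD86481 and DMSO groups of senescent cells, the test recovered 56 of 100 genes set to differ by 1.5-fold and 88 of 100 set to differ by 2-fold, with 18 false calls among 14044. In that simulation 200 genes were changed and the spread followed the level of a gene alone, while 43.2% of genes passed in the data. Its rates of recovery and of false calls therefore need not hold for the data.

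The genes and lists were chosen with earlier results of these data known. Named genes were, among genes that passed without overlap of the groups and with a mean of at least 1 CPM in the higher group, the 12 largest rises and 12 largest falls, the 3 members of each list with the lowest p, 25 set genes, and the 6 most positive and 6 most negative interactions. For DDD86481 against IMP1088 the rule would have named genes that passed, of which there were 0. Other list members, the heat shock list and the list of all collagen chains were named after their values were seen. Deviations of same-numbered libraries of DDD86481 and IMP1088 correlated weakly (r of 0.117, 0.126 and 0.119 across genes). Those of DDD86481 and DMSO in senescent cells had r of 0.0335, 0.17 and 0.00675. Libraries of different numbers were not compared, so a pairing by number was not tested. Alternatives were upper quartile and RLE scaling, DESeq2 1.42.0, no filter, a filter of 1 CPM in 3 libraries, the replicate number as a block, a fit of the compared libraries alone, a 2-fold limit and leaving out each library. Lists of proteins that start with methionine and glycine were not analysed here.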

Additional observations from a re-analysis of the deposited data

Results flagged for a closer look

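Each gene below had an effect of DDD86481 that differed between senescent and control cells in edgeR's interaction test (adjusted p under 0.05), and the values are differences of log2 FCs, senescent minus control. Genes of the UPR, Golgi and stress named here with a more positive effect in senescent cells were INHBE (2.95), XBP1 (0.63), ATF4 (0.99), NUPR1 (1.53), RARS1 (0.78), ARF4 (1.32), ARF6 (0.37), SQSTM1 (0.77) and HMOX1 (2.00), while TRIB3 had -1.41. Over whole lists, the interaction passed upwards in 2 and downwards in 3 ER stress sensors, and in 3 and 3 ATF4 and CHOP genes. Among heat shock genes the values were 2.99 for HSPA1A, 2.62 for HSPA1B, 4.60 for CRYAB, 1.42 for DNAJB4 and 1.61 for HSPB8. Genes of the cell cycle and nucleus had 3.82 for CDKN2C, 1.39 for CDKN1C, 2.97 for CDC6, 1.02 for RRM1, 4.59 for AURKB, 4.79 for TK1 and 2.27 for LMNB1, against -1.31 for CDKN2B and -0.47 for CDKN1A.

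Secreted and matrix genes named here with a more negative effect in senescent cells had -4.70 for CXCL10, -2.79 for PLAT, -2.20 for TIMP3, -1.09 for IGFBP3, -0.90 for IL1B, -1.80 for THBS1 and -4.03 for MXRA5. The collagen genes COL1A1, COL3A1, COL4A5, COL6A3 and COL12A1 had -1.77, -2.27, -2.07, -1.62 and -1.22. IL6, MMP1 and COL1A2 ran the other way, with 1.69, 0.83 and 0.73, and of the SASP proteases the interaction passed upwards in 6 and downwards in 9. In signalling, FYN had -1.14, DUSP4 -1.44, SPRED1 -1.27, SPRY4 -1.33, EGR1 -1.77, TEK -1.44, TNFSF18 -3.26, NKD2 -3.33 and ESR1 -0.57. The other genes were NMT2 (0.65), ACTG2 (-1.13), GABRB1 (-3.34), INMT (-2.79), LINC00475 (-2.51), ITGA8 (-3.42), NDUFA5 (1.09), CLDN4 (2.04), MYH11 (2.72), ANKRD1 (5.43), EAF2 (2.92) and LYPD3 (2.98). MYH11 had only 1 to 5 counts in the 6 senescent libraries compared, so its value is uncertain. Of all genes tested, 30.3% passed this test.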

How the results depend on the processing

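Of 167 named genes, 152 kept their direction and their side of the threshold under each alternative run for them, and 0 changed direction. The count for DDD86481 against DMSO in senescent cells was 6068 to 6214 under other scalings, filters and tools and in the fit of the 6 libraries alone, and 5282 to 5812 without 1 library. With at least a 2-fold change it was 1585, and that of the interaction was 1412. Leaving out 1 library gave 3419 to 5796 genes for the interaction, 3773 to 6317 for the control cells and 0 for DDD86481 against IMP1088. Fitted alone, the 6 control libraries gave 2842 genes, and 931 passed with a 2-fold limit. IL6, CXCL8 and CHAC1, which did not pass, passed when the 6 libraries were fitted alone (adjusted p = 0.0029, 0.000463 and 0.000516). With no filter, 1 gene passed between DDD86481 and IMP1088. The share of rises among calls in senescent cells was 46.5%, or 52.5% with the stricter filter.

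The replicate number as a block gave 6259 genes in senescent cells, 4555 for the interaction, 5412 in control cells and 0 for DDD86481 against IMP1088, and it moved no count by over 1.5 times. Calls of UNC119, UNC119B, NMT2, IL1B, CDKN2A, LMNB1, TRIB3 and MMP3 were lost without at least 1 of the 6 libraries, with adjusted p up to 0.104, 0.103, 0.11, 0.076, 0.0771, 0.171, 0.0594 and 0.227. Those of ERCC6L and FNDC5 were lost too, and PECAM1 and CLDN4 passed without 1 library. The causes were not tested. With 3 libraries a group, a change that did not pass may still exist.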

Other observations

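Cytosolic and mitochondrial heat shock genes were listed after HSPA6 was seen among the largest rises. Of 24 tested, 11 rose and 4 fell in senescent cells given DDD86481 (median log2 FC 0.14). HSPA1A, an inducible HSP70, had 5.86, 6.29 and 6.98 CPM with DMSO and 59.6, 24.8 and 69.4 CPM with DDD86481 (log2 FC 3.00 ± 0.28, adjusted p = 5.74e-08). CRYAB, a small heat shock protein, went from 0.309, 0.498 and 0.165 to 6.01, 3.76 and 9.44 CPM (log2 FC 4.30 ± 0.43, adjusted p = 1.55e-07). In both genes DDD86481 replicate 2 was the lowest and replicate 3 the highest of the DDD86481 libraries, as for ARC and HMOX1, and the groups did not overlap. HSPB1 fell from 234, 219 and 268 to 158, 130 and 170 CPM (log2 FC -0.65 ± 0.13, adjusted p = 0.000392), and FKBP4, a co-chaperone of HSP90, fell too (log2 FC -0.56 ± 0.094, adjusted p = 7.03e-05). HSPA1A and HSPA1B are near-identical copies that share reads, and CRYAB shares 13.6% of its exonic bases with HSPB2, so their levels are uncertain. In control cells 1 gene of the list rose and 6 fell (median -0.09).

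Over every collagen chain tested, chosen after the collagen list was seen, 22 of 35 fell and 2, COL1A2 and COL2A1, rose (median log2 FC -0.79, or -0.78 with genes at the floor at their bounds). In control cells 11 of these genes rose and 3 fell (median 0.30), and the interaction was downwards in 18 and upwards in 2. COL1A1 had 7600 ± 1814 CPM in control cells with DMSO and 9122 ± 1455 CPM with DDD86481 (SD, n = 3).

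Genes named after their values were seen include EAF2, a partner of an elongation factor, with 0.617, 0.56 and 0.44 CPM with DMSO and 9.88, 11.9 and 9.5 CPM with DDD86481 (log2 FC 4.27 ± 0.26, adjusted p = 2.5e-10), and LYPD3, a surface protein of keratinocytes, with 1.91, 0.872 and 1.43 and 18.7, 20 and 25.5 CPM (log2 FC 3.92 ± 0.23, adjusted p = 1.34e-10). NKD2, an inhibitor of WNT signalling that is itself myristoylated, fell from 16.8, 18.2 and 14.9 to 2.46, 2.51 and 0.859 CPM (log2 FC -3.07 ± 0.33, adjusted p = 3.67e-07). TK1, thymidine kinase, rose from 0.37, 0.187 and 0.44 to 1.69, 1.25 and 1.78 CPM (log2 FC 2.20 ± 0.38, adjusted p = 8.83e-05), against 19.7 ± 3.67 CPM in control cells with DMSO and 3.25 ± 0.157 CPM in control cells with DDD86481.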
